A study of Rattus norvegicus with 12 samples.

Results

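Oral nicotinamide (NAM), given to obese ZSF1 rats, was compared with no treatment in the hearts of 8 of the 12 samples of the study: 4 from obese rats that drank NAM and 4 from untreated obese rats. All 8 are of the ZSF1 strain and cardiac muscle, and the treated rats drank water with NAM at 24 mM between the ages of 8 and 20 weeks. The other 4 samples, from lean ZSF1 rats, were used only to set the spread of the fit and as a reference level. The labels call the obesity diet-induced and name no diet, whereas obese ZSF1 rats are generally known to inherit non-functional leptin receptors together with hypertension. That genotype is shared by the treated and the untreated obese rats. Whether each sample is a separate animal, the age at sampling, the chamber sampled and the batches of extraction and sequencing are not stated in the labels, so p-values measure the spread between these samples. Of 17602 genes in the expression table, 10041 held a number in every sample and reached 1 TPM in at least 4 of the 8 obese samples, and these were compared. TPM is each gene's length-corrected share of all transcripts of its sample, with each sample's shares summing to about the same total.

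NAM is a form of vitamin B3. Cells turn it into NAD+ by way of nicotinamide phosphoribosyltransferase (Nampt) and the NMNAT enzymes, and NAD+ carries electrons from fuel breakdown to the respiratory chain and is consumed by sirtuins, PARPs and CD38. The study asked whether raising NAD+ alters the stiff, slowly relaxing hearts of rats with the risk factors of heart failure with preserved ejection fraction. In rodent ventricle, the fast α-myosin heavy chain (Myh6) is the normal adult form and the slow β form (Myh7) is raised under load, and relaxation depends on calcium return to the sarcoplasmic reticulum by SERCA2a (Atp2a2), which phospholamban (Pln) restrains.

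The samples matched their tissue label in the most direct markers: Myh6 lay between 198 and 508 TPM and Atp2a2 between 564 and 1266 TPM in the 8 obese samples. Transcripts encoded by mitochondrial DNA made up most of every sample, 75.1% ± 0.376 (SD, n = 4) in untreated and 71.3% ± 1.69 (n = 4) in treated hearts, with no overlap. The exact permutation test of this difference gave a 2-sided p of 0.0286, the smallest that 4 samples against 4 allow, and an adjusted p of 0.0686 over 6 library measures. TPM is a share, so a lower mitochondrial share leaves more for all other genes. As deposited, 85.3% of the tested genes had a change above 0. The median change was 0.25 as deposited and still 0.11 in TPM recomputed without mitochondrially encoded genes. How much of the general shift comes from the mitochondrial share was not tested. Each comparison is therefore given on 2 scales: as deposited, and rescaled, where each sample was divided by the median ratio of its genes to the mean profile (size factors from 0.841 to 0.928 in untreated, 0.995 to 1.17 in treated and 1.03 to 1.09 in lean hearts). Markers of atrial muscle and the conduction system summed to 1215 TPM in treated replicate 1, against 248 to 308 TPM in the other treated and 169 to 656 TPM in the untreated hearts. Blood transcripts and macrophage markers also varied widely between samples, as given below with the stromal genes.

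As deposited, 3125 genes (31.1% of those tested) passed an adjusted p of 0.05. Of these, 3078 (30.7%) were higher and 47 (0.468%) lower with NAM, and the median change of all genes was 0.25 on the log2(TPM + 1) scale. Quantile normalization called 87 genes, 50 higher and 37 lower, and TPM recomputed without mitochondrially encoded genes 340, 288 higher and 52 lower. As deposited, the groups did not overlap in 2918 genes that were higher (29.1%) and 31 that were lower (0.309%). After rescaling the median change was -0.01, 48.7% of genes had a change above 0, and 76 genes (0.757%) passed, 21 higher (0.209%) and 55 lower (0.548%). At an unadjusted p below 0.05, 7.38% of all genes were higher and 8.64% lower after rescaling. Counts of list members at that p are given below with their share of the list, to be read against these 2 shares. Counts of list members called are to be read against the called shares of all genes above. In a fit limited to the 4927 genes with a mean of at least 5 TPM, 2360 were called higher as deposited. Their median change was 0.30. Called shares as deposited therefore also depend on expression level, for which the lists were not matched. The rescaled groups did not overlap in 499 genes that were higher (4.97%) and in 448 that were lower (4.46%). All 21 rescaled rises were also called higher as deposited, and 24 of the 55 rescaled falls were also called lower. The other 31 rescaled falls were genes whose TPM did not pass the test as deposited, so their fall was relative to the typical gene. Rescaled rises ranged from 0.33 to 0.71 on the log2 scale (median 0.47) and rescaled falls from 0.31 to 2.09 in size (median change -0.58). All changes below are treated minus untreated on the log2(TPM + 1) scale, which understates changes of genes near 1 TPM. Adjusted p-values of genes are limma's with Benjamini-Hochberg adjustment over the 10041 genes.

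**Figure D1:**
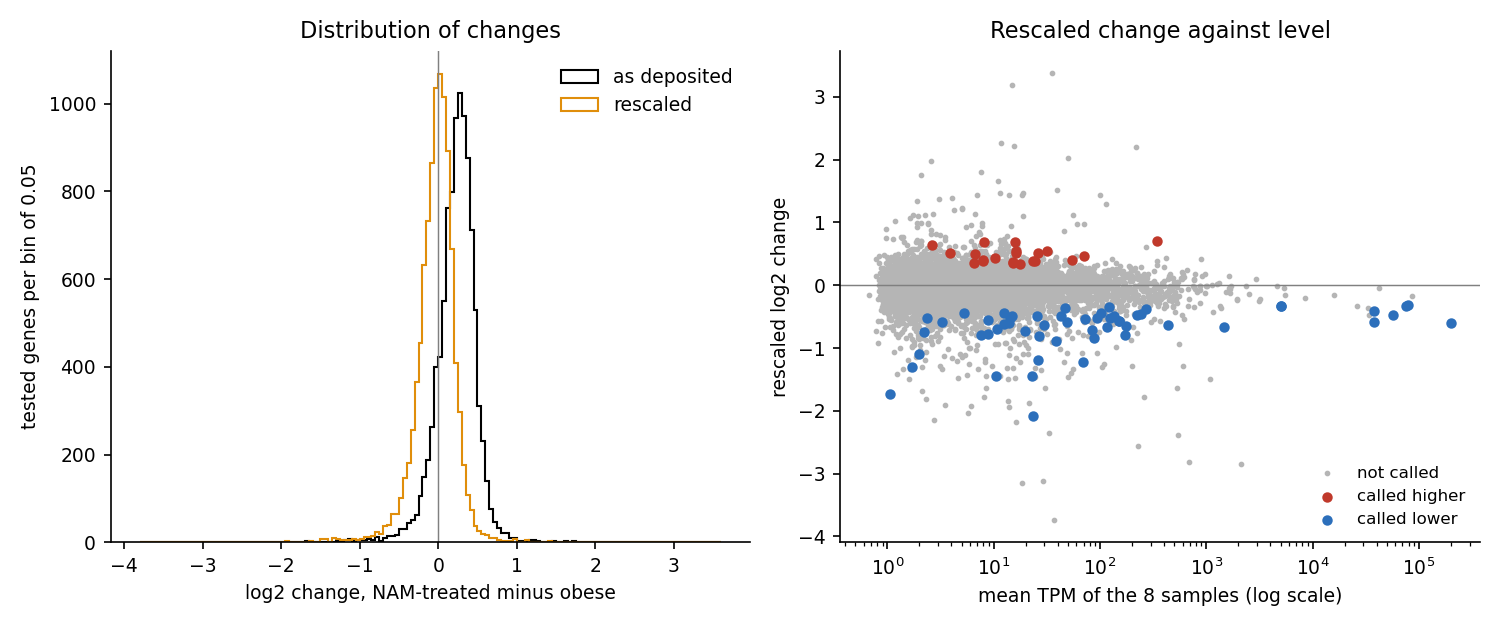
Left, number of tested genes per bin of log2 change (treated minus untreated obese hearts) as deposited and rescaled; the deposited distribution is centred on 0.25 and the rescaled on -0.01. Right, rescaled log2 change against the mean TPM of the 8 samples (log axis), with the 21 genes called higher in red and the 55 called lower in blue; the called falls include mitochondrially encoded genes at the far right, and many genes with larger changes were not called.

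When each of the 12 samples was left out in turn, 8 of the 76 rescaled calls held in every fit, and all 76 kept their sign. The rescaled count was 9, 55, 28 and 18 without treated replicates 1 to 4, 64, 169, 21 and 13 without untreated replicates 1 to 4, and 72, 36, 53 and 51 without lean replicates 1 to 4. The sample whose absence gave the highest adjusted p was treated replicate 1 for 38 of the 76 genes, untreated replicate 3 for 22 and treated replicates 3 or 4 for the other 16. Under the other alternatives to the rescaled fit, these 8 genes were called wherever they were tested, except Asb15 when only the 8 obese samples were fitted (adjusted p = 0.05); a filter on a mean of 5 TPM left 6 of the 8 to test. Chrm2 encodes the M2 muscarinic receptor, through which the vagus nerve slows the heart. It lay at 9.09, 10.9, 9.72 and 11.7 TPM in the untreated hearts and at 21.7, 18.7, 24.4 and 21.2 TPM in the treated hearts. The groups were far apart, and every treated heart also exceeded the lean mean of 13.6 TPM ± 1.69 (n = 4). Chrm2 rose by 0.99 ± 0.11 (SE) as deposited (adjusted p = 0.00238) and by 0.68 ± 0.10 rescaled (adjusted p = 0.0141). Asb15, an ankyrin-repeat adaptor of ubiquitin ligases that is enriched in muscle, lay at 3.99, 6.45, 4.74 and 5.56 TPM without and 11.1, 9.50, 12.5 and 11.3 TPM with NAM. The lowest treated heart was thus above the highest untreated heart. Asb15 rose by 0.97 ± 0.12 as deposited (adjusted p = 0.00259) and by 0.69 ± 0.10 rescaled (adjusted p = 0.0141). Cers4, a ceramide synthase, lay between 1.35 and 1.76 TPM in the untreated and between 3.33 and 4.16 TPM in the treated hearts. Its rescaled rise was 0.65 ± 0.09 (adjusted p = 0.0141), and lean hearts held 2.89 TPM ± 0.155.

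The other 5 stable calls were falls. Pi16, a peptidase inhibitor made by cardiac and other fibroblasts, lay at 15.1, 10.5, 16.7 and 17.7 TPM in untreated and 4.86, 5.83, 6.46 and 7.48 TPM in treated hearts. It fell by 1.15 ± 0.16 as deposited (adjusted p = 0.00281) and by 1.44 ± 0.17 rescaled (adjusted p = 0.00928). Every treated heart was below every untreated heart and below the lean mean of 10.1 TPM. In a whole-tissue sample fewer cells of a type and less RNA per cell cannot be told apart. Hcfc1r1, a regulator of the transcriptional cofactor HCF-1, lay at 115, 112, 107 and 77.6 TPM in untreated and 74.9, 66.1, 78.1 and 64.5 TPM in treated hearts, so that untreated replicate 4 fell within the treated range as deposited. Rescaled, Hcfc1r1 fell by 0.84 ± 0.11 (adjusted p = 0.0133) without overlap. Serpine2, the secreted protease inhibitor nexin-1, and Sh3bgrl3, a small thioredoxin-like protein, were named after their values were seen. Serpine2 went from 15.4 TPM ± 1.48 to 12.4 TPM ± 1.25, a fall of 0.59 ± 0.08 rescaled (adjusted p = 0.0133). Sh3bgrl3 went from 15.5 TPM ± 1.20 to 13.2 TPM ± 1.07 and fell by 0.52 ± 0.07 rescaled (adjusted p = 0.0133); it did not pass as deposited (adjusted p = 0.0708). The last was AABR07043453.1, a gene model with no assigned name, also named after its values were seen. It was listed at 0 in all treated and all lean hearts and at 1.09, 2.30, 3.10 and 2.05 TPM in the untreated obese hearts. It passed the filter on TPM only through the untreated hearts, and a gene that enters in this way can only show a fall without overlap. The values at 0 have no spread, and the fits with a sample left out did not filter again. Its limma adjusted p of 0.00148 rescaled and its place among the stable calls therefore add nothing to the listed values. Without counts no fold is given.

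**Figure D2:**
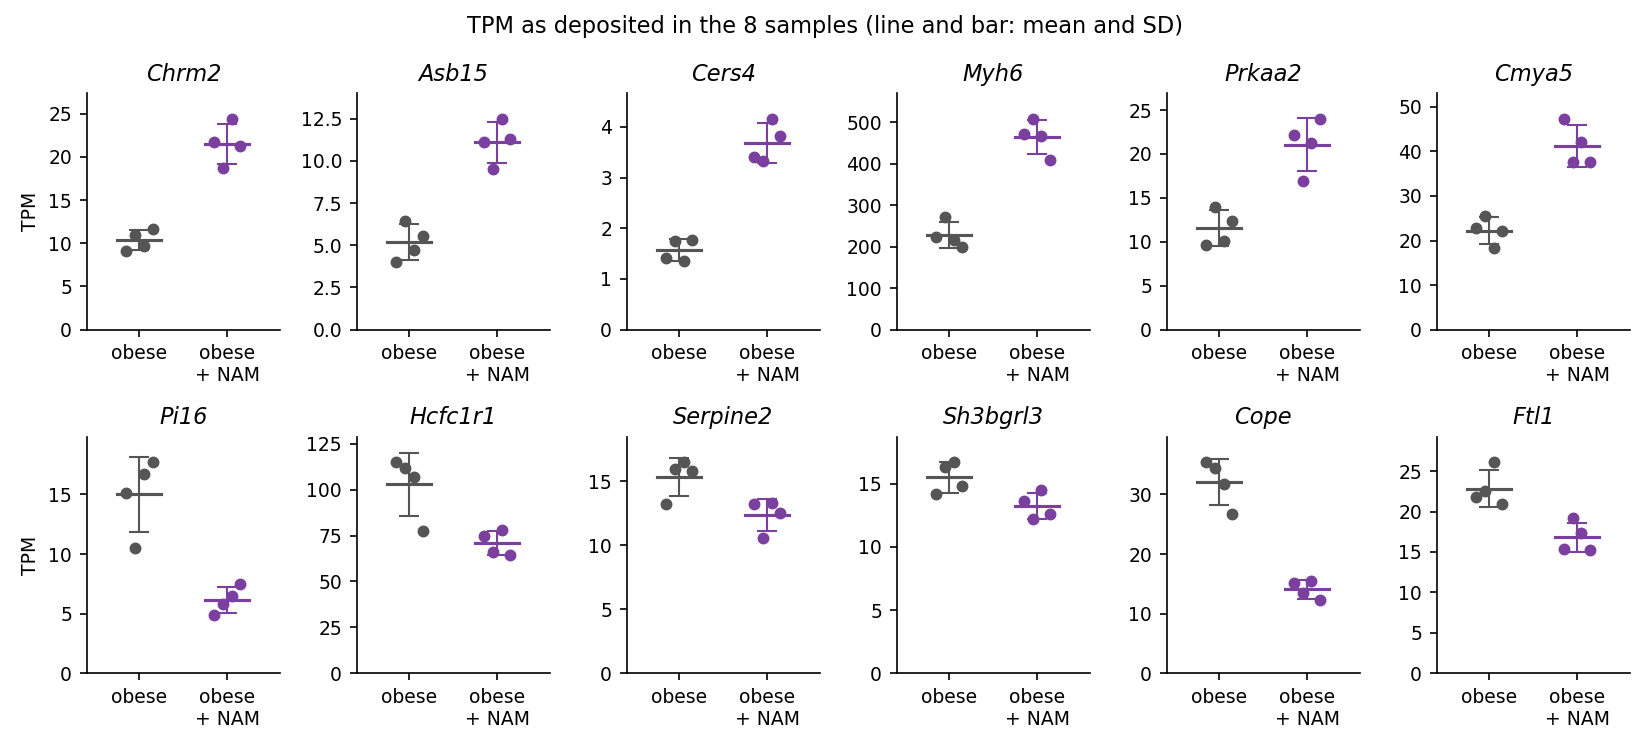
TPM as deposited of 12 genes in the 4 untreated and 4 treated obese hearts (points, 1 per sample), with the mean (line) and SD (bar); axes start at 0. The upper 6 genes were called higher on both scales with no overlap; in the lower row Pi16, Cope and Ftl1 do not overlap, while Hcfc1r1, Serpine2 and Sh3bgrl3 overlap until they are rescaled.

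Of 37 tested genes of the sarcomere and Z-disc, 28 were called higher and 0 lower as deposited (30.7% of all genes were called higher). Their median change was 0.41, against 0.25 for all genes and 0.30 for genes with a mean of at least 5 TPM. Rescaled, 2 rose, none fell and the median was 0.10. At an unadjusted p below 0.05, 10 were higher (27% of the list, beside 7.38% of all genes) and 3 lower (8.11%, beside 8.64%). Of the 37, 29 had rescaled changes above 0 (48.7% of all genes did), and in 7 every treated heart lay above every untreated heart (4.97% of all genes), in 1 below. Those that rose were Myh6 and Cmya5. Myh6 lay at 223, 272, 217 and 198 TPM in untreated and 471, 508, 467 and 409 TPM in treated hearts, well below the lean mean of 791 TPM ± 174. The 2 obese groups were clearly separated, with a change of 1.03 ± 0.14 as deposited (adjusted p = 0.00281) and 0.71 ± 0.14 rescaled (adjusted p = 0.0406). The rescaled call held in 3 of 12 fits with a sample left out, and its adjusted p reached 0.121 without untreated replicate 3. Cmya5 (myospryn), an anchoring protein of the Z-disc, went from 22.2 TPM ± 2.97 to 41.2 TPM ± 4.61. It rose by 0.55 ± 0.09 rescaled (adjusted p = 0.0222), in 9 of 12 such fits (0.0793 without treated replicate 1). The slow myosin Myh7 moved in the same direction as Myh6: it lay at 614, 702, 479 and 384 TPM in untreated and 831, 745, 763 and 806 TPM in treated hearts. Myh7 rose by 0.56 ± 0.16 as deposited (adjusted p = 0.0186) and changed by 0.24 ± 0.15 rescaled (adjusted p = 0.479). The ratio of Myh7 to Myh6, which rescaling does not touch, was 2.37 ± 0.367 in untreated and 1.71 ± 0.213 in treated hearts, against 0.323 to 0.640 in lean hearts. The obese groups overlapped in this ratio, and the exact permutation test gave a 2-sided p of 0.0571 (adjusted p = 0.0686). Reads from these 2 closely related myosin genes can be split in ways that the table does not show.

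Other named genes had links to the contractile apparatus or its anchorage. Tns1 (tensin 1), a link between integrins and actin, went from 18.6 TPM ± 2.21 to 33.5 TPM ± 3.41. It rose by 0.51 ± 0.08 rescaled (adjusted p = 0.019) and was called in 10 of 12 fits with a sample left out (up to 0.0651 without treated replicate 1). Ppp1r12b, a subunit of myosin phosphatase, went from 7.43 TPM ± 0.956 to 13.0 TPM ± 1.08 and rose by 0.44 ± 0.08 rescaled (adjusted p = 0.0263, held in 7 of 12 fits). Nebl (nebulette), a Z-disc protein, rose by 0.79 ± 0.15 as deposited (adjusted p = 0.00395); its rescaled change of 0.47 ± 0.12 did not pass (adjusted p = 0.105).

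Genes that mark load or the fetal programme showed no call after rescaling. Of 10 tested, 2 were higher as deposited (30.7% of all genes). Rescaled, 0 were higher and 3 lower (30% of the list) at an unadjusted p below 0.05. Nppb, which encodes B-type natriuretic peptide, lay at 202, 339, 219 and 262 TPM in untreated and 212, 154, 173 and 203 TPM in treated hearts (rescaled change -0.77 ± 0.27, adjusted p = 0.205). Acta1, skeletal α-actin, went from 115 TPM ± 21.3 to 71.0 TPM ± 25.5 (rescaled change -1.08 ± 0.28, adjusted p = 0.109). For both genes the rescaled groups did not overlap, but neither passed the test. Nppa, the atrial peptide gene, was spread from 76.0 to 268 TPM in untreated hearts and was 169, 135 and 186 TPM in 3 treated hearts, with 453 TPM in treated replicate 1. That sample also had the highest sum of atrial markers, and its part in the Nppa values was not tested.

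In calcium handling, 14 of 28 tested genes were higher as deposited (30.7% of all genes) and none lower. Rescaled, none rose and 1 fell, with a median of 0.06; at an unadjusted p below 0.05, 11 were higher (39.3% of the list) and 3 lower (10.7%). Atp2a2 lay at 687, 803, 564 and 614 TPM in untreated and 1266, 1014, 1074 and 1082 TPM in treated hearts, where lean hearts had 1077 TPM on average. It rose by 0.74 ± 0.11 as deposited (adjusted p = 0.00281). Rescaled, Atp2a2 changed by 0.42 ± 0.09 and did not pass (adjusted p = 0.0622), with groups that did not overlap. Pln rose by 0.50 ± 0.07 as deposited (adjusted p = 0.00281) and changed by 0.18 ± 0.05 rescaled (adjusted p = 0.141). Hrc, a calcium-binding protein of the sarcoplasmic reticulum, changed by 0.36 ± 0.09 rescaled (adjusted p = 0.0879). Ryr2, the calcium release channel, changed by 0.28 ± 0.11 rescaled (adjusted p = 0.257). The only gene of this list that was called after rescaling went the other way: Sri (sorcin), a calcium-binding modulator of Ryr2, was 15.6 TPM ± 1.07 without and 13.8 TPM ± 2.05 with NAM. It fell by 0.48 ± 0.09 rescaled (adjusted p = 0.0321), in 6 of 12 fits with a sample left out, and did not pass as deposited (adjusted p = 0.248).

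Of 28 tested ion channels and components of vagal signalling, 15 were higher as deposited (30.7% of all genes). At an unadjusted p below 0.05, 7 were higher (25% of the list) and 3 lower (10.7%) rescaled. Only Chrm2 was called higher after rescaling (list median 0.16). The channel that acts downstream of this receptor is formed by the products of Kcnj3 and Kcnj5. Kcnj3 lay at 4.50, 6.94, 5.47 and 5.93 TPM in untreated and 12.2, 11.1, 11.1 and 12.0 TPM in treated hearts. It rose by 0.92 ± 0.15 as deposited (adjusted p = 0.00291), and the rescaled change was 0.63 ± 0.14 (adjusted p = 0.0582). Kcnj5 went from 5.75 TPM ± 1.04 to 11 TPM ± 1.6, against 5.94 TPM in lean hearts (rescaled change 0.54 ± 0.13, adjusted p = 0.0899). The lowest treated heart exceeded the highest untreated heart in both genes on both scales. Both belong to the list of atrial and conduction markers. Treated replicate 1, which had the highest sum of those markers, was at 12.2 TPM for Kcnj3 and 11.2 TPM for Kcnj5. The other treated hearts were at 8.73, 11.5 and 12.5 TPM for Kcnj5. The part of atrial tissue in the values of these genes was not tested. Abcc9, the sulphonylurea receptor subunit of the KATP channel, had a rescaled change of 0.39 ± 0.09 (adjusted p = 0.0644).

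Among 30 tested energy sensors and regulators of mitochondrial genes, 16 were higher as deposited (30.7% of all genes). At an unadjusted p below 0.05, 8 were higher (26.7% of the list) and 2 lower (6.67%) rescaled. After rescaling 1 gene was called higher (list median 0.10). That gene was Prkaa2, the catalytic α2 subunit of AMP-activated protein kinase, which senses low energy. It lay at 9.63, 14.0, 10.1 and 12.4 TPM in untreated and 22.1, 16.9, 21.3 and 24.0 TPM in treated hearts, and the latter were spread around the lean mean of 22 TPM ± 1.04. Prkaa2 rose by 0.82 ± 0.12 as deposited (adjusted p = 0.00281) and 0.52 ± 0.09 rescaled (adjusted p = 0.0321), in 5 of 12 fits with a sample left out. Ppara, the nuclear receptor of fatty acid oxidation, went from 4.54 TPM ± 0.640 to 8.13 TPM ± 0.468 (rescaled 0.45 ± 0.11, adjusted p = 0.0879). Ppargc1a, a coactivator of mitochondrial biogenesis, had a rescaled change of 0.28 ± 0.10 (adjusted p = 0.196).

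Genes of fuel use were called higher as deposited in large numbers and none was called after rescaling. As deposited the counts were 29 of 36 for glucose uptake and glycolysis and 24 of 28 for the tricarboxylic acid cycle and pyruvate entry. They were 22 of 37 for fatty acids and 18 of 24 for ketones and branched-chain amino acids, with 0 lower in each list. Of all genes, 30.7% were called higher as deposited, and of the 4927 genes with a mean of at least 5 TPM 2360 were. The rescaled medians were 0.15, 0.10, 0.07 and 0.11 in the same order. At an unadjusted p below 0.05, limma gave 10 higher (27.8% of the list) and 0 lower rescaled genes for glucose, 6 (21.4%) and 0 for the cycle, 8 (21.6%) and 4 (10.8%) for fatty acids and 5 (20.8%) and 2 (8.33%) for ketones and amino acids. The glycogen gene Gbe1 (branching enzyme) had a rescaled change of 0.32 ± 0.08 (adjusted p = 0.1). Slc2a4, the insulin-responsive glucose transporter, was 33.4, 32.1, 24.5 and 27.0 TPM in untreated hearts. In treated hearts it was high in replicates 1 and 2 (59.0 and 57.2 TPM) and lower in replicates 3 and 4 (37.0 and 39.7 TPM), and the rescaled change was 0.37 ± 0.16 (adjusted p = 0.302). Cs, citrate synthase, went from 171 TPM ± 22.9 to 258 TPM ± 13.6 (rescaled 0.28 ± 0.07, adjusted p = 0.0952). Pdha1, a pyruvate dehydrogenase subunit, had a rescaled change of 0.24 ± 0.06 (adjusted p = 0.108). Cpt1b, which admits fatty acids to mitochondria, rose by 0.39 ± 0.09 as deposited (adjusted p = 0.00802) and changed by 0.07 ± 0.06 rescaled (adjusted p = 0.656). Pdk4, which blocks pyruvate oxidation in fasting, was 78.1, 78.7 and 84.3 TPM in 3 treated hearts and 22.1 TPM in treated replicate 2, against 40.4 to 67.9 TPM in untreated hearts (rescaled change -0.21 ± 0.62). Bdh1, the ketone enzyme β-hydroxybutyrate dehydrogenase, was 5.93 TPM ± 0.748 without and 8.15 TPM ± 2.22 with NAM, both below the lean 19.7 TPM (rescaled change 0.09 ± 0.17, adjusted p = 0.833).

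The genes that handle NAM and NAD+ themselves were spread around the general shift. Of 43 listed genes, 26 were tested. As deposited 9 were higher (30.7% of all genes) and 0 lower, and 0 were called after rescaling by limma. At an unadjusted p below 0.05, 2 were higher (7.69% of the list) and 3 lower (11.5%), near the shares of all genes. Their median was 0.26 as deposited and -0.03 rescaled, the latter beside -0.01 for all genes. Nampt, the salvage enzyme that uses NAM, lay at 26.5, 29.7, 28.4 and 37.8 TPM in untreated and 46.5, 44.9, 42.7 and 36.4 TPM in treated hearts. The groups overlapped through untreated replicate 4 and treated replicate 4, and the rescaled change was 0.16 ± 0.12 (adjusted p = 0.567). The largest values were those of 2 mitochondrial enzymes of the NADP pool. Nnt, nicotinamide nucleotide transhydrogenase, went from 150 TPM ± 24.6 to 229 TPM ± 25.1 (rescaled 0.28 ± 0.09, adjusted p = 0.138). Nadk2, the mitochondrial NAD kinase, went from 14.8 TPM ± 1.97 to 22.4 TPM ± 2.22 (rescaled 0.26 ± 0.07, adjusted p = 0.115). Nmrk2, the muscle nicotinamide riboside kinase, was 3.30 TPM ± 0.588 and 3.86 TPM ± 0.868 (rescaled -0.08 ± 0.17). Nnmt, which methylates NAM for excretion, was near 1 TPM in both groups (1.06 ± 0.367 and 1.21 ± 0.446). Among NAD+ consumers, Sirt3 and Parp1 were called higher as deposited (adjusted p = 0.0209 and 0.0168) and changed by 0.07 ± 0.10 and 0.10 ± 0.09 rescaled. Parp3 had the smallest rescaled p of the list: it was 7.63 TPM ± 0.263 without and 7.44 TPM ± 0.305 with NAM, a rescaled change of -0.32 ± 0.07 (adjusted p = 0.0753). Cd38 was 5.40 TPM ± 1.49 and 4.78 TPM ± 1.01, with overlap. Nmrk1 and Sirt1 are not analysed here.

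**Figure D3:**
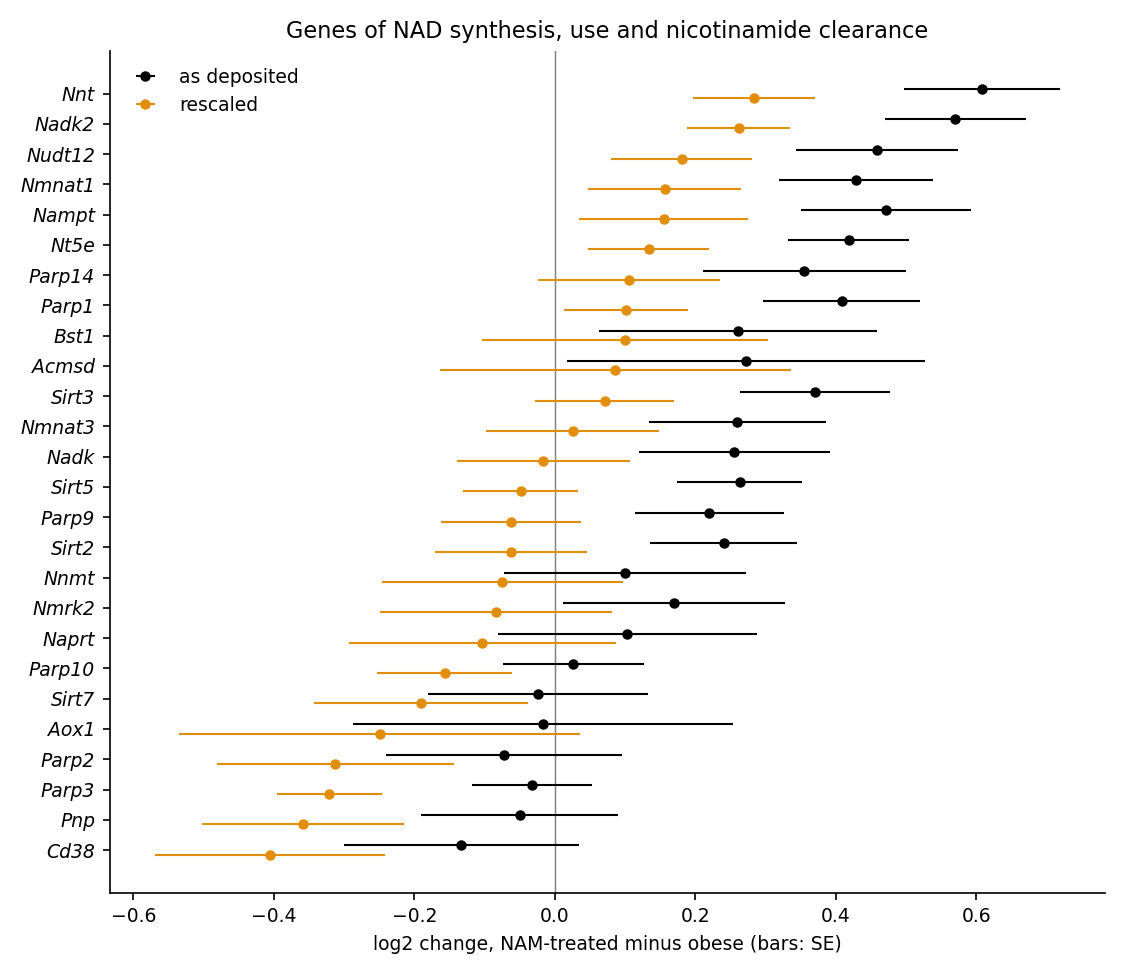
Log2 change (treated minus untreated obese hearts, points) with its SE (bars) for the 26 tested genes of NAD synthesis, use and nicotinamide clearance, as deposited and rescaled. On the rescaled axis the genes lie on both sides of 0, from Cd38 at -0.41 to Nnt at 0.28.

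The respiratory chain is built from subunits of both genomes. All 13 mitochondrially encoded genes had rescaled changes below 0, with a median of -0.34 (-0.01 as deposited), and 6 fell; 11 were lower (84.6% of the list) at an unadjusted p below 0.05. Mt-nd2, a complex I subunit, lay at 42094, 45549, 37355 and 38829 TPM in untreated and 33648, 35208, 32251 and 35921 TPM in treated hearts. The groups did not overlap on the deposited scale either, where Mt-nd2 fell by 0.25 ± 0.07 (adjusted p = 0.0228); rescaled it fell by 0.58 ± 0.09 (adjusted p = 0.0214). Mt-co1, a cytochrome oxidase subunit, was 75461 TPM ± 4574 and 75073 TPM ± 3235, so that its rescaled fall of 0.33 ± 0.06 (adjusted p = 0.0284) was one relative to the nuclear genes only. Mt-atp8 and Mt-atp6 encode ATP synthase subunits from overlapping frames, and the table does not show how shared reads were split. As deposited Mt-atp8 fell by 0.28 ± 0.07 (adjusted p = 0.0163) while Mt-atp6 rose by 0.15 ± 0.05 (adjusted p = 0.043), a call held in 3 of 12 fits with a sample left out (up to 0.129 without untreated replicate 1). Rescaling, which lowers the changes of all highly expressed genes alike, gave Mt-atp6 a change of -0.18 ± 0.06 that did not pass (adjusted p = 0.199). Their ratio was 2.71 ± 0.354 in untreated and 2.01 ± 0.198 in treated hearts (exact permutation test, 2-sided p = 0.0571, adjusted p = 0.0686). Without Mt-atp8, mitochondrial transcripts were 68.1% ± 1.17 and 65.1% ± 1.44 of TPM (exact permutation test, 2-sided p = 0.0571, adjusted p = 0.0686).

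For nuclear genes of complex I, 16 of 37 were higher as deposited (30.7% of all genes), with a median of 0.19. Rescaled, 0 were called by limma and the median was -0.13. At an unadjusted p below 0.05, 1 was higher (2.7% of the list) and 12 lower (32.4%), 9 of the 37 had rescaled changes above 0 (48.7% of all genes), and in 6 every treated heart lay below every untreated heart (4.46% of all genes). Within this complex the members differed: Ndufs1, the largest core subunit, went from 192 TPM ± 24.1 to 292 TPM ± 16.3 (rescaled 0.29 ± 0.07, adjusted p = 0.0833). The small subunits Ndufs7 and Ndufb7 had rescaled changes of -0.64 ± 0.17 (adjusted p = 0.101) and -0.46 ± 0.13 (adjusted p = 0.115). For complexes II to V, 25 of 43 were higher as deposited (30.7% of all genes), the rescaled median was -0.04 and 1 fell. At an unadjusted p below 0.05, 4 of these were higher (9.3%) and 13 lower (30.2%), and 13 had changes above 0. The called gene was Atp5mc2, a gene of the ATP synthase c-ring, at 123 TPM ± 3.51 and 122 TPM ± 12.7 (rescaled -0.34 ± 0.07, adjusted p = 0.0386, held in 2 of 12 fits with a sample left out). Of 72 tested mitochondrial ribosomal protein genes, 31 were higher as deposited (30.7% of all genes) and the rescaled median was -0.04. Rescaled, limma called 0, with 3 higher (4.17% of the list) and 7 lower (9.72%) at an unadjusted p below 0.05.

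Genes of cytosolic ribosomal proteins lagged behind the general shift. Of 68 tested, 2 were higher and 2 lower as deposited (30.7% and 0.468% of all genes), with a median of 0.08. Rescaled, 5 fell (0.548% of all genes), none rose, 2 had changes above 0 and the median was -0.25. At an unadjusted p below 0.05, 44 were lower (64.7% of the list) and 0 higher. In 20 of the 68 every treated heart was below every untreated heart after rescaling, beside 4.46% of all genes. The fallers included Rpl13a, which lay at 156, 142, 188 and 167 TPM in untreated and 148, 125, 135 and 136 TPM in treated hearts. The groups overlapped as deposited, and Rpl13a fell by 0.58 ± 0.09 after rescaling (adjusted p = 0.019, held in 9 of 12 fits with a sample left out). Rpl35 fell by 0.45 ± 0.08 rescaled (adjusted p = 0.0321, held in 4 of 12 fits), with deposited means of 256 TPM ± 18.0 and 235 TPM ± 21.0. Ribosomal protein genes have many near-identical processed copies, so how reads were assigned to them is uncertain.

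With all samples, fibroblast markers had the lists' lowest rescaled median apart from blood transcripts, close to immediate-early genes (-0.44) and macrophage markers (-0.41). This order did not hold with a sample left out. Without treated replicate 3, immediate-early genes were at -0.60 and fibroblast markers at -0.44. Without untreated replicate 1, macrophage markers were at -0.68 and fibroblast markers at -0.52. Of 23 tested fibroblast markers, 2 fell (0.468% of all genes) and 0 rose as deposited. Rescaled, 3 fell, 1 had a change above 0 and the median was -0.45; 17 were lower (73.9% of the list) and 0 higher at an unadjusted p below 0.05. Besides Pi16, the fallers were Mfap4, a microfibril protein (31.8 TPM ± 5.74 and 22.1 TPM ± 2.20; rescaled -0.81 ± 0.14, adjusted p = 0.0246), and Gsn, the actin-severing protein gelsolin. Gsn was 163 TPM ± 25 and 136 TPM ± 8.11 (rescaled -0.57 ± 0.10, adjusted p = 0.0263) and did not pass as deposited (adjusted p = 0.0932). Mfap4 was called in 8 and Gsn in 7 of the 12 fits with a sample left out. The summed TPM of the fibroblast list was 672, 845, 1155 and 1028 in untreated and 827, 669, 826 and 786 in treated hearts. These sums overlapped, with untreated replicates 3 and 4 highest.

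The list of collagens and other matrix genes held no call after rescaling. Of 39 tested, 3 were higher as deposited (30.7% of all genes). Rescaled, limma called 0 and the median was -0.26. At an unadjusted p below 0.05, 16 were lower (41% of the list) and 0 higher. Col3a1, the type III collagen gene, lay at 27.5, 41.4, 52.4 and 37.6 TPM in untreated and 31.0, 33.5, 34.7 and 30.9 TPM in treated hearts (rescaled -0.56 ± 0.15, adjusted p = 0.105). Untreated replicate 1 lay below the treated range. Col1a1 was 4.72 TPM ± 1.10 and 3.99 TPM ± 0.157 (rescaled -0.44 ± 0.13, adjusted p = 0.123). Eln (elastin) had a rescaled change of -0.70 ± 0.18 (adjusted p = 0.104). Ecm1, a secreted matrix protein outside this list, fell by 0.69 ± 0.13 rescaled (adjusted p = 0.0327, held in 5 of 12 fits) and missed the threshold as deposited (adjusted p = 0.0592).

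Other cell types in the tissue moved with these genes in part. The 21 tested macrophage and myeloid markers had a rescaled median of -0.41 and 0 calls by limma (4 lower, 19% of the list, and 0 higher at an unadjusted p below 0.05). Their summed TPM was 82.5, 189, 329 and 273 in untreated and 163, 167, 179 and 182 in treated hearts, so the untreated hearts spanned the treated ones. Without untreated replicate 1 this median was -0.68, and without untreated replicate 3 it was -0.17. Erythroid and blood transcripts had the lowest rescaled median, -1.34 over 9 tested genes, with 0 calls by limma and 6 lower (66.7% of the list) at an unadjusted p below 0.05. Their sums were 1845, 1880, 4471 and 3430 TPM in untreated and 1308, 935, 2629 and 563 TPM in treated hearts. Hbb, the β-globin gene, and Hba-a1, an α-globin gene, were named after their values were seen; Hbb lay at 944, 900, 2212 and 1816 TPM without and 714, 466, 1332 and 300 TPM with NAM, with overlap (adjusted p = 0.0906 as deposited). Hba-a1 had a deposited change of -1.32 ± 0.50 (adjusted p = 0.0698), and near-identical globin genes can share reads. Untreated replicates 3 and 4 were highest in fibroblast, macrophage and blood sums alike, and the part of these cells in the called falls was not tested. Endothelial markers (19 tested) had a rescaled median of -0.11 and smooth muscle and pericyte markers (16 tested) of 0.01, with 0 calls by limma in each and 3 lower (15.8%) and 0 higher, and 1 lower (6.25%) and 1 higher (6.25%), at an unadjusted p below 0.05. Of 18 listed lymphocyte markers 1 was tested and it was not called; the summed TPM of the listed markers was 2.86 to 12.1 in untreated and 8.55 to 11.6 in treated hearts.

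**Figure D4:**
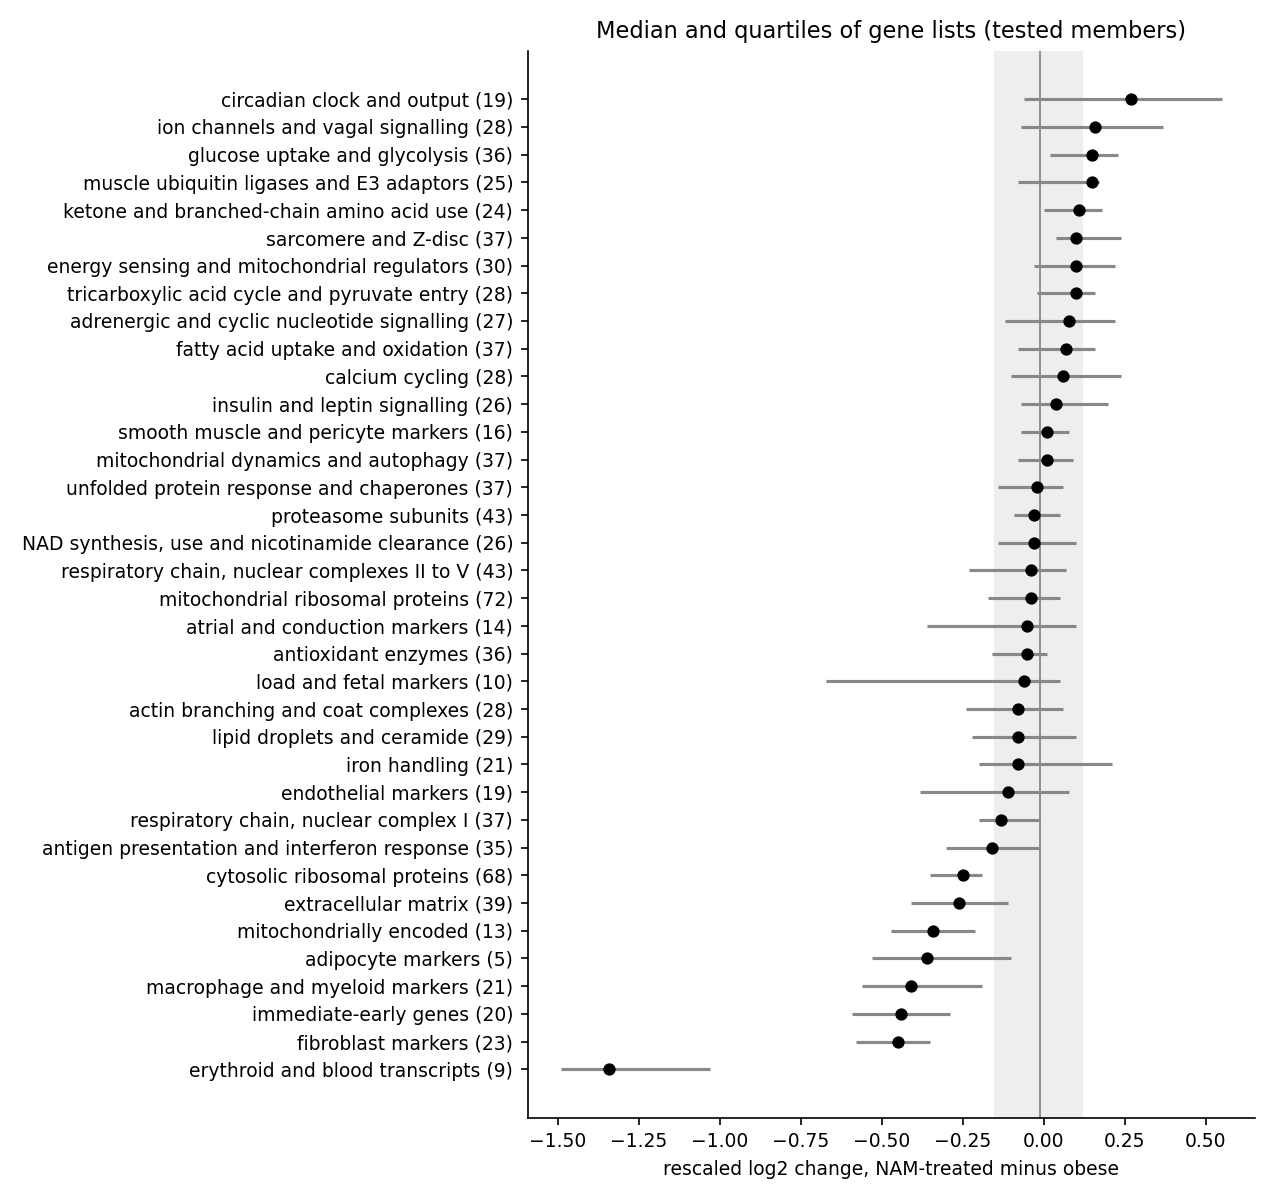
Median (point) and quartiles (line) of the rescaled log2 change of each gene list with at least 5 tested members, whose number stands in brackets; the grey line and band are the median (-0.01) and quartiles (-0.15 and 0.12) of all 10041 genes. With all samples circadian genes (0.27) lie highest and blood transcripts (-1.34) lowest. The medians of the lists of metabolism and contraction lie within the quartiles of all genes or just above them, except that of mitochondrially encoded genes (-0.34), which lies below.

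Several further falls concerned the actin skeleton, vesicle coats and iron storage. Of 28 tested actin and coat genes, 9 were higher and 3 lower as deposited (30.7% and 0.468% of all genes). Rescaled, 4 fell (0.548% of all genes) and the median was -0.08. This list was chosen with earlier results of these data known, so its count of calls is no evidence about such genes as a class. At an unadjusted p below 0.05, 2 were higher (7.14% of the list) and 9 lower (32.1%). Cope, a subunit of the COPI coat of Golgi vesicles, lay at 35.4, 34.5, 31.8 and 26.8 TPM in untreated and 15.2, 13.4, 15.5 and 12.2 TPM in treated hearts, while the 4 lean hearts lay at 29.9, 11.3, 9.85 and 13.6 TPM. The obese groups were far apart. Cope fell by 1.14 ± 0.27 as deposited (adjusted p = 0.0103) and 1.45 ± 0.25 rescaled (adjusted p = 0.0321); the rescaled call held in 4 of 12 fits with a sample left out and the deposited call in all 12. Arpc1b, a subunit of the actin-branching Arp2/3 complex, went from 9.13 TPM ± 2.64 to 5.99 TPM ± 0.516 and fell by 0.79 ± 0.15 rescaled (adjusted p = 0.0329). Tmod2, which caps actin filaments, went from 2.74 TPM ± 0.359 to 1.64 TPM ± 0.457 and fell by 0.74 ± 0.12 rescaled (adjusted p = 0.0222). Ftl1, the ferritin light chain, lay at 21.8, 22.6, 26.1 and 20.9 TPM in untreated and 15.4, 19.2, 17.3 and 15.3 TPM in treated hearts and fell by 0.73 ± 0.13 rescaled (adjusted p = 0.0263). Its partner in ferritin, the heavy chain gene Fth1, was 764 TPM ± 50.0 and 887 TPM ± 88.5, a rescaled change of -0.11 ± 0.07 (adjusted p = 0.455). The difference between both ferritin genes was not tested, and ferritin genes too have near-identical copies. Of 21 tested iron genes, Ftl1 alone was called after rescaling. At an unadjusted p below 0.05, 3 were higher (14.3% of the list) and 4 lower (19%).

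The remaining named falls had varied roles. Bcl7c, a subunit of SWI/SNF chromatin remodelling complexes, lay at 3.87, 2.87, 2.63 and 2.19 TPM without and 1.56, 1.31, 0.635 and 0.960 TPM with NAM. It fell by 1.09 ± 0.17 rescaled (adjusted p = 0.019) in 11 of 12 fits with a sample left out. Rbp7, a retinoid-binding protein of capillary endothelium and fat, lay at 31.6, 39.7, 41.2 and 24.0 TPM without and 15.9, 16.2, 14.2 and 26.5 TPM with NAM. Treated replicate 4 overlapped the untreated hearts as deposited; rescaled, Rbp7 fell by 1.19 ± 0.23 (adjusted p = 0.0406, held in 3 of 12 fits). Upf3b, a factor of nonsense-mediated RNA decay, fell by 0.78 ± 0.16 rescaled (adjusted p = 0.0456, held in 3 of 12 fits). Akip1, which binds protein kinase A, fell by 0.59 ± 0.11 rescaled (adjusted p = 0.0327, held in 4 of 12 fits), with 3.78 TPM ± 0.116 and 2.78 TPM ± 0.288. Of 35 tested genes of antigen presentation and the interferon response, 2 were higher as deposited (30.7% of all genes). Rescaled, 0 were higher and 7 lower (20% of the list) at an unadjusted p below 0.05, with a median of -0.16. After rescaling 3 were called lower (0.548% of all genes). They were Bst2 (tetherin), which fell by 0.63 ± 0.12 (adjusted p = 0.0365), and the related antiviral genes Ifitm2 and Ifitm3, which fell by 0.58 ± 0.12 (adjusted p = 0.0478) and 0.54 ± 0.10 (adjusted p = 0.0368). None of these 3 passed as deposited, and they were called in 3, 1 and 4 of the 12 fits. Atat1, the α-tubulin acetyltransferase, was spread from 4.70 to 22.7 TPM in untreated and from 2.96 to 4.39 TPM in treated hearts; it fell by 1.35 ± 0.45 as deposited (adjusted p = 0.0449), held in 2 of 12 fits, and was not called rescaled (adjusted p = 0.117).

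Other named rises had varied roles. Fbxo32, the muscle ubiquitin ligase atrogin-1, lay at 11.4, 12.9, 9.87 and 11.5 TPM in untreated and 23.0, 19.9, 22.2 and 20.0 TPM in treated hearts. The groups did not overlap, and Fbxo32 rose by 0.54 ± 0.11 rescaled (adjusted p = 0.0456; 0.123 without untreated replicate 3). With Asb15 it made 2 rescaled rises (0.209% of all genes) among 25 tested muscle ubiquitin ligases and adaptors. That list, too, was chosen with earlier results of these data known. As deposited 13 of its members were higher (30.7% of all genes). At an unadjusted p below 0.05, 6 were higher (24% of the list) and 2 lower (8%) rescaled. Kctd18, of a family with many such adaptors, went from 4.17 TPM ± 0.457 to 10.4 TPM ± 1.89, the largest rise among the genes named as deposited (1.13 ± 0.20, adjusted p = 0.00336; rescaled 0.85 ± 0.20, adjusted p = 0.0677). Mre11, a nuclease of DNA break repair, rose by 0.51 ± 0.10 rescaled (adjusted p = 0.0463, held in 1 of 12 fits), with 2.35, 3.73, 2.22 and 2.33 TPM without and 5.29, 4.83, 5.24 and 5.12 TPM with NAM. Taf9b, a relative of a TFIID subunit, went from 4.62 TPM ± 0.631 to 8.60 TPM ± 0.775 and rose by 0.50 ± 0.10 rescaled (adjusted p = 0.0386, held in 3 of 12 fits). Gsk3b, the glycogen synthase kinase, and Hipk2, a nuclear kinase, rose as deposited and narrowly missed after rescaling, with 0.54 ± 0.11 (adjusted p = 0.0542) and 0.61 ± 0.14 (adjusted p = 0.0636).

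Clock genes had a rescaled median of 0.27 over 19 tested genes, with 4 called higher as deposited (30.7% of all genes). Without untreated replicate 3 this median was 0.11, below that of the ion channels (0.12), and without untreated replicate 1 it was 0.33. Rescaled, limma called 0, with 4 higher (21.1% of the list) and 0 lower at an unadjusted p below 0.05. Tef, an output factor of the clock, lay at 7.95, 8.40, 8.24 and 12.0 TPM without and 15.3, 19.8, 18.5 and 19.1 TPM with NAM (rescaled 0.63 ± 0.20, adjusted p = 0.159). Nr1d2, a repressor within the clock, went from 10.5 TPM ± 1.91 to 19.8 TPM ± 2.39 (rescaled 0.55 ± 0.18, adjusted p = 0.171). Dbp, an output factor like Tef, was 7.67 TPM ± 2.06 and 15.6 TPM ± 2.33, while its upstream activator Arntl was 3.39 TPM ± 1.67 and 1.70 TPM ± 0.902; neither passed on either scale. In Arntl the obese groups overlapped. In Dbp they did not overlap as deposited (6.25 to 10.7 and 12.8 to 18.3 TPM), but did after rescaling. Dbp was 0.984 TPM in lean replicate 4 and 10.2 to 12.8 TPM in the other lean hearts, which also enter the spread of the fit. These genes vary over the day, and the hour of sampling is not stated in the labels. Immediate-early genes, which respond within minutes to handling, had a rescaled median of -0.44 over 20 tested genes, with 0 above 0 and 0 called by limma (3 lower, 15% of the list, at an unadjusted p below 0.05). Their sums were 182, 119, 189 and 136 TPM in untreated and 107, 93.2, 221 and 163 TPM in treated hearts, with overlap.

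Rescaled changes also followed the length of the gene's locus. Genes were put in 5 classes by their span from start to end in RefSeq (assembly GRCr8), which gave a span for 9162 of the tested genes (91.2%). The median rescaled change rose from -0.09 in genes up to 8.41 kb to -0.03, 0.00, 0.03 and 0.05 in genes of 71.1 kb and more. The gap between the longest and the shortest class was below 0 in 3 untreated hearts and above 0 in all treated hearts, at -0.0624 ± 0.0649 and 0.0845 ± 0.0359 on average. The lowest treated heart (0.0373) was just above the highest untreated heart (0.0316), and the exact permutation test gave a 2-sided p of 0.0286, adjusted to 0.0686. The called rises numbered 0, 3, 3, 5 and 8 from the shortest to the longest class, and the called falls 17, 8, 5, 5 and 1. Only 55 of the 76 called genes (72.4%) have a span, too few for a check of the called set. When rescaling was done within each class, which was chosen after seeing the data, 59 genes were called, of which 55 were among the 76. Genes without a span kept their ordinary rescaled values there, so this check could not alter the values of called genes that lack a span. The 55 shared calls need not be the 55 calls that have a span. The part of gene span or RNA quality in these calls was not tested.

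**Figure D5:**
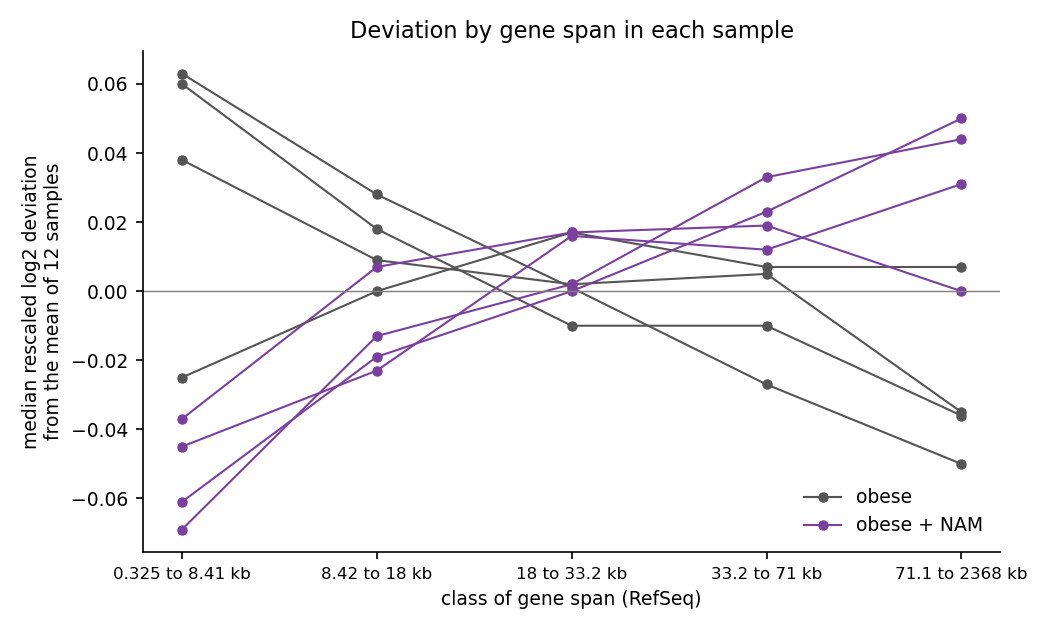
Median rescaled log2 deviation from the mean of 12 samples for 5 classes of gene span (x axis, kb), 1 line for each of the 8 obese samples. In the shortest class the treated hearts lie between -0.069 and -0.037 and the untreated between -0.025 and 0.063; in the longest class untreated replicate 2 lies above treated replicate 2.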

How the data were processed

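Cardiac muscle of ZSF1 rats was sequenced in 12 samples, 4 lean, 4 obese and 4 obese with nicotinamide, from total RNA (TRIzol and RNeasy) with a strand-specific NEBNext Ultra II kit, per the labels' protocols. The authors deposited 1 table of TPM per gene; the submitters' processing notes name Rnor_6.0 and limma, and the aligner, quantifier and annotation version were not given in the sources used here. In the treated columns the deposited values are on another footing than plain TPM in 1 respect: 498 genes hold a mark of a failed lookup in place of a number (491 of them at 0 in all untreated obese hearts), and these columns sum to 999877.0 to 999920.1 instead of about 1e6. The marked genes were left out. TPM keeps no depth, so the depth is unknown and precision rests on the spread between samples.

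Genes that reached 1 TPM in 4 or more of the 8 obese samples were fitted as log2(TPM + 1) with limma 3.58.1 in R 4.3.3 (statmod 1.5.0): 1 mean per group, 12 samples, 9 residual degrees of freedom, trended and robust eBayes, Benjamini-Hochberg adjustment over 10041 genes, threshold 0.05, 2-sided. The fit was run as deposited and after median-of-ratios rescaling over the 12 samples. The fit without rescaling was also run on simulated data with independent normal noise. That simulation did not cover rescaling or a general shift of all genes, so it does not bear on the rescaled calls. Library measures were compared by exact permutation tests (all 70 ways to assign the 8 samples to the groups; smallest 2-sided p 0.0286), adjusted over 6, of which the gene span measure was added after seeing the data. A list of 39 gene groups (1252 genes, 1032 tested) is described by counts and medians, with no set test. A symbol of more than 1 tested gene stands for the copy with the highest mean.

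Genes, gene lists and tests were chosen with earlier results of these data known. Named genes are the 12 largest rises and 12 largest falls rescaled and the 8 and 8 as deposited, among called genes with a mean of at least 2 TPM and no overlap, up to 3 members of a list with calls, and genes fixed by name; not every gene so named is described, and some are not reported here. Alternatives tried were no filter, pseudocounts of 0.1 and 5, a filter on a mean of 5 TPM, eBayes without trend and robust, arrayWeights, a fit to 8 samples, a replicate block, each sample left out, quantile normalization, TPM without mitochondrially encoded genes, and another reference for rescaling. TPM without Mt-atp8 and rescaling within 5 classes of gene span were added after seeing the data.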

Additional observations from a re-analysis of the deposited data

Results flagged for a closer look

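Of 182 sets of 4 samples screened (both obese groups of the named genes and library measures), 9 had 1 sample far from the other 3, with a gap of more than 0.829 of the range; chance flags about 1 in 20. In untreated replicate 2 the highest value was far from the others in Mre11 (3.73 TPM) and Tns1 (21.9 TPM). In untreated replicate 4 this held for the clock genes Tef (12.0 TPM) and Nr1d2 (13.4 TPM). Among treated hearts, replicate 1 had a far higher Nppa (453 TPM) and a slightly but separately lower Col1a1 (3.75 TPM). Replicate 2 was lowest in Gsk3b (7.70 TPM) and Pdk4 (22.1 TPM), and replicate 4 was highest in Rbp7 (26.5 TPM).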

How the results depend on the processing

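As deposited, the count of 3125 called genes ranged from 1915 to 3704 with a sample left out, and was 87 under quantile normalization and 340 in TPM without mitochondrially encoded genes. TPM without Mt-atp8, chosen after seeing the data, gave 2097. The rescaled count of 76 ranged from 9 to 169 with a sample left out. It was 27 with no filter, 117 with a mean of at least 5 TPM, 18 with eBayes without trend and robust, and 18 in a fit over the 8 obese samples (15 of them among the 76). The causes of these differences were not tested. Deviations of same-numbered treated and untreated samples correlated weakly across genes, at 0.0383, 0.0686, 0.0913 and -0.00303 as deposited. Of the 4 untreated samples, 3 correlated best with their own number. Whether same-numbered samples were paired was not tested. With a replicate block 2646 genes were called as deposited and 51 rescaled, 36 of them among the 76. Of the named genes' alternative values, 1761 kept direction and side of the threshold as deposited and 1529 rescaled, 113 and 288 lost the call, and 46 and 29 gained it. Values that changed sign lay near 0 or in variable genes. With a sample left out these were, as deposited, Atp5mc2 (-0.07 to 0.03), Mt-co1 (-0.05 to 0.02), Nnmt (-0.02 to 0.18), Nppa (-0.10 to 0.50) and Pdk4 (-0.06 to 0.57). Rescaled they were Nmrk2 (-0.17 to 0.05), Nnmt (-0.20 to 0.01), Bdh1 (-0.07 to 0.23), Nppa (-0.42 to 0.19) and Pdk4 (-0.37 to 0.20). Quantile normalization gave -0.06 for Nmrk2, -0.05 for Nnmt and -0.15 for Pdk4; TPM without mitochondrially encoded genes gave -0.01 for Nnmt and -0.09 for Pdk4. With arrayWeights Mt-co1 was 0.02 as deposited, and with rescaling within classes of gene span Nppa was 0.07. Depth is unknown, so counting error at low TPM cannot be given.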
